A study of Mus musculus with 6 samples.

Results

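Axon guidance genes of the ephrin, Slit-Robo and netrin systems were followed in a mouse Schwann cell line, unedited or edited to prevent expression of the transcription factor Sox10. The set holds 39 genes chosen by family name: Eph receptors and ephrins, Slits and Robos, netrins and the netrin receptors of the Unc5 and Dcc families. Of these, 38 were matched to an Ensembl ID among the 54109 listed genes, and Ntn3 had no matching ID and was not analysed here. Messenger RNA had been counted in 6 cultures of Msc80, an established line of Schwann cells, the glia that ensheathe axons of peripheral nerves. In 3 control cultures the labelled genotype was Sox10 wild type. The 3 Sox10ko cultures had been edited with CRISPR/Cas9 so that Sox10 would not be expressed. All cultures were grown in serum-containing medium. Sources of the Sox10ko cultures are labelled as a cell clone, in the same words for all 3, and those of the control cultures as the cell line. Whether the Sox10ko cultures share 1 clone is not stated, although each is labelled a biological replicate. P-values therefore cover the spread between these cultures, and loss of Sox10 cannot be told apart from other properties of a cloned line.

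The 3 systems steer growing axons and migrating cells. Ephrins sit on the cell surface, class A through a lipid anchor and class B through a transmembrane segment, and bind Eph receptor tyrosine kinases on neighbouring cells, with signals running into both cells. Slits and netrins are secreted or matrix-bound; Slits act mostly through Robo receptors, and netrins through Dcc, neogenin and the Unc5 receptors. In injured peripheral nerve, ephrin-B acting on EphB2 has been linked to the sorting of Schwann cells into cords. Slit3 with Robo1 has been linked to their path across the nerve bridge. Which cells make these ligands in nerve was not studied here.

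Libraries held 32328618 to 41834431 counted reads. Levels are CPM, read counts scaled to sequencing depth with TMM, given as mean ± SD with n = 3 per group. Fold changes are log2 of Sox10ko over control ± SE. Sox10 stood at 606, 627 and 617 CPM in the control libraries and at 82.2, 67.4 and 116 CPM in Sox10ko (log2 fold change -2.80 ± 0.20, edgeR adjusted p = 0.000186), so the Sox10ko cultures kept 14.4% of the control mean. The summed level of 10 Schwann cell markers was 4570 to 5120 CPM in control and 112 to 162 CPM in Sox10ko, and 9 of the 10 fell. The 10 include Sox10 itself, the edited gene, which made up most of the Sox10ko sum. Ngfr, at 2690 to 3230 CPM, made up most of the control sum. Summed markers of smooth muscle and pericytes ran from 557 to 628 CPM in control, mostly Cspg4 and Pdgfrb, and from 917 to 1460 CPM in Sox10ko. Of these 8 markers 6 rose, Acta2 from at most 0.23 CPM to between 107 and 643 CPM. Des went from at most 0.439 CPM to between 9.07 and 24.1 CPM. Cnn1, Myh11, Rgs5 and Tagln were at 1.26 CPM or less in every library, and Cspg4 and Tagln were not called. Markers of fibroblasts ran from 285 to 334 CPM in control and from 657 to 1910 CPM in Sox10ko (2 of 4 tested rose). Col1a1 alone stood at 481 to 1680 CPM in Sox10ko, and Dcn, Lum, Dpt and Thy1 at 0.419 CPM or less in every library. Those of epithelium ran from 0.195 to 0.298 and from 77.8 to 105 CPM, in Sox10ko mostly Krt7 (72.6 to 102 CPM), with Cdh1, Epcam and Cldn4 under 0.1 CPM. All 3 tested epithelial markers rose, Krt14 to at most 2.59 CPM and Krt8 to at most 2.39 CPM besides Krt7. Neuron markers summed to 172 to 218 and 119 to 166 CPM, with Rbfox3 at 0 reads in every library. Of 6 tested neuron markers 1 was called, Tubb3, which was lower (log2 fold change -0.81, edgeR adjusted p = 0.0252). Leukocyte markers summed to 5.45 to 7.23 CPM and 9.59 to 13.4 CPM, with Cd3e and Itgam at 0. Of 2 tested leukocyte markers Cd68 rose, to between 5.25 and 10.7 CPM (log2 fold change 1.79, edgeR adjusted p = 0.0065), and Csf1r was not called. Endothelial markers summed to 3.54 to 4.66 CPM in control and 19.8 to 56.0 CPM in Sox10ko, where Vwf alone stood at 19.0 to 55.5 CPM. Cdh5 was called lower, from 1.54, 1.54 and 1.83 CPM in control to 0, 0.258 and 0 CPM in Sox10ko (log2 fold change -4.11, edgeR adjusted p = 0.0143). Kdr, Tie1 and Cldn5 were at 0.164 CPM or less in every library. The part of these markers' shifts in the results below was not tested, and in bulk RNA fewer cells of a type and less RNA per cell cannot be told apart.

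Of the 38 matched guidance genes, 25 passed the low-count filter, and 12 of those were called at an adjusted p under 0.05, 9 higher and 3 lower in Sox10ko. Among all 15427 tested genes 32.0% were called, 17.3% higher and 14.7% lower, against 48% of the tested guidance genes. No test of that difference was made. The median log2 fold change was 0.42 over the 25 tested guidance genes and 0.02 over all tested genes. At least 2-fold changes were called for 9 guidance genes, where the background was 17.1%. Control and Sox10ko values did not overlap for 13 of the 25, close to the background of 49.3%. One of the 12 called genes, Epha10, passed the low-count filter only through its control libraries. Of 13 tested ligands 7 were higher and 0 were lower in edgeR, with the same 7 and 0 at an unadjusted p under 0.05, in DESeq2 and in limma-voom. Among the 7, Efnb1, Efnb2 and Slit3 lost their calls with a replicate block and with some libraries left out. Of 12 tested receptors, 2 were higher and 3 lower, or 2 and 4 at an unadjusted p under 0.05. Over all 15427 tested genes, 6684 had an unadjusted p under 0.05 in either direction.

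**Figure D1:**
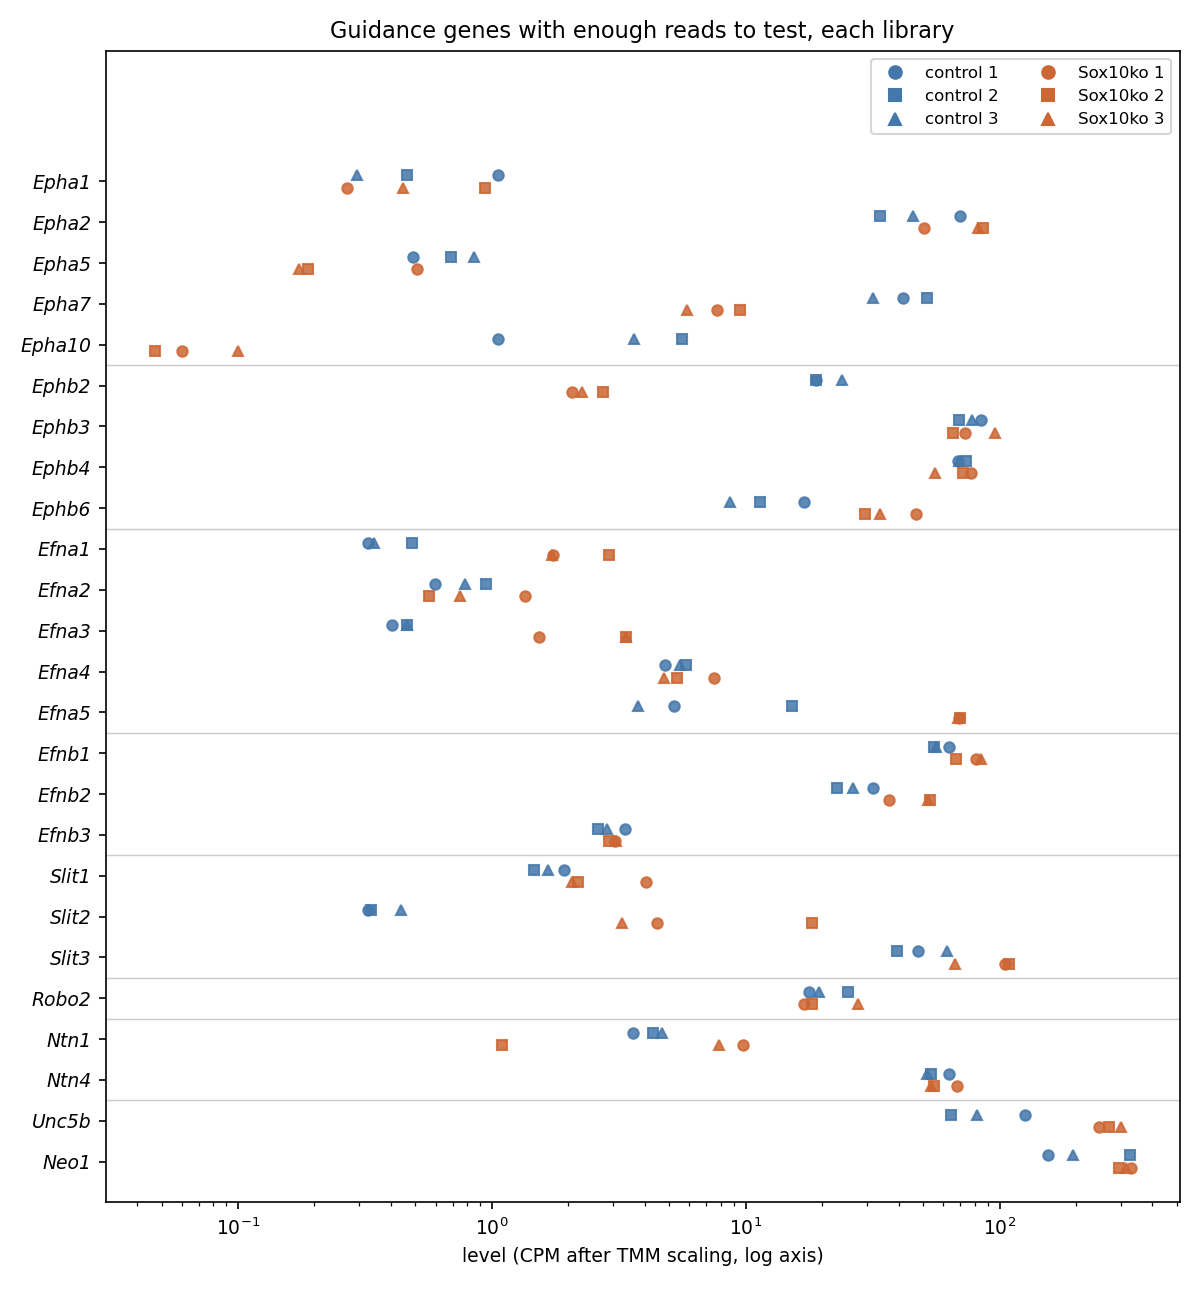
Level in CPM (log axis) of each of the 25 tested guidance genes in each of the 6 libraries, with 1 point per library; colours mark the group, symbols the replicate and grey lines the roles. Epha7, Epha10 and Ephb2 lie lower in all 3 Sox10ko libraries than in any control library, and Efna1, Efna3, Efna5, Slit2 and Unc5b lie higher.

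**Figure D2:**
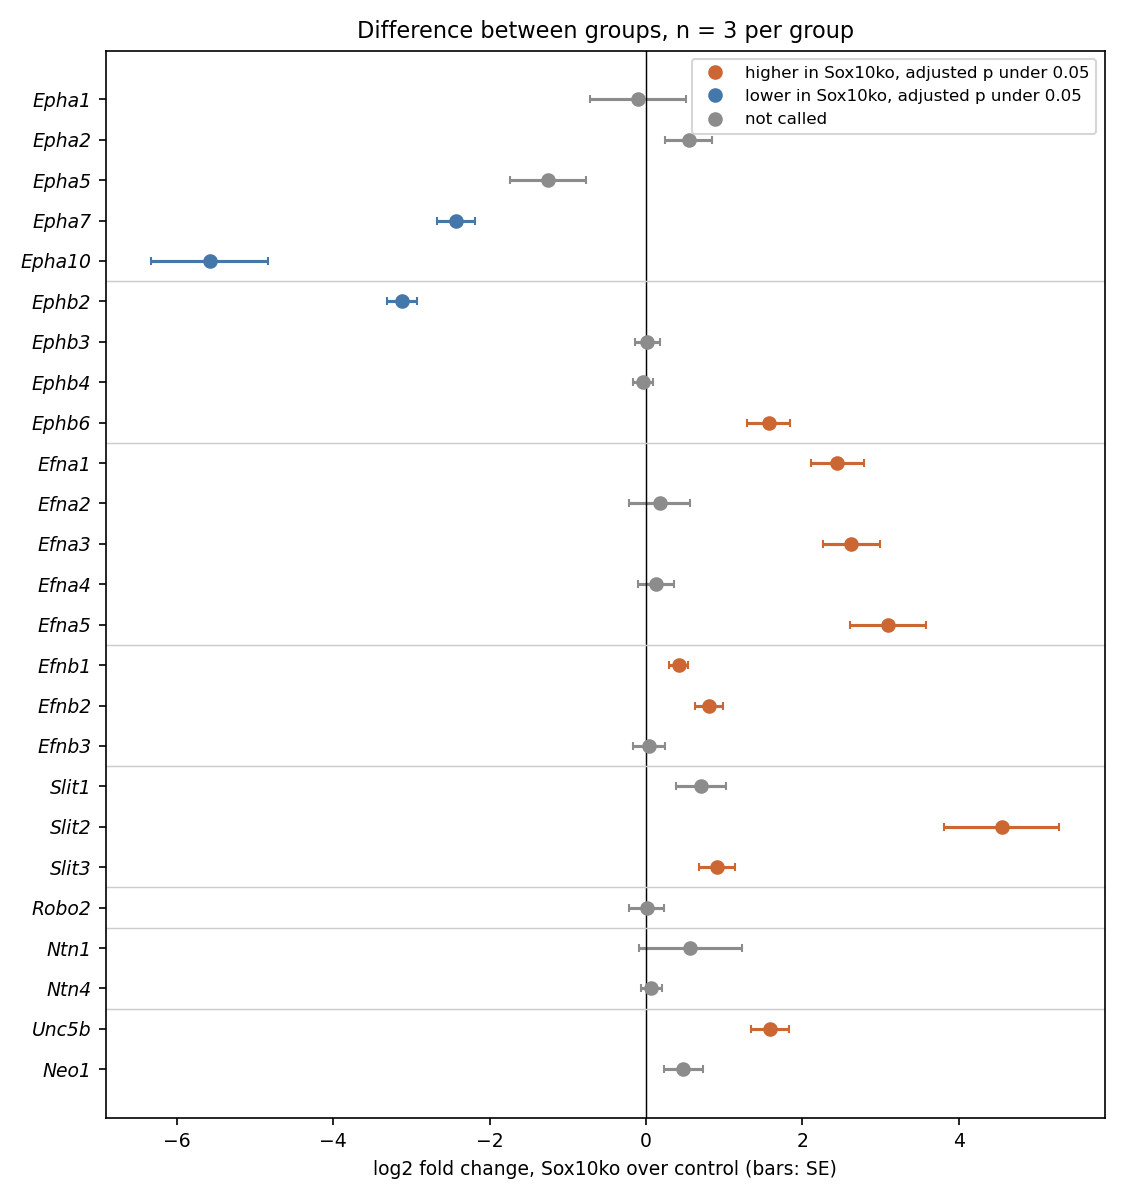
Log2 fold change of Sox10ko over control with its SE for the 25 tested guidance genes, n = 3 per group, ordered by role; orange marks the 9 genes called higher, blue the 3 called lower and grey the 13 not called. All ephrins and Slits lie to the right of 0, called or not, and Eph receptors lie on both sides.

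Eph receptors changed in both directions. The 3 falls among guidance genes were all Eph receptors. Epha7, a class A receptor for ephrin-A ligands with repulsive actions on axons, stood at 41.6, 51.8 and 31.6 CPM in the control libraries, given here as below in the order of replicates 1, 2 and 3. In the Sox10ko libraries it stood at 7.72, 9.52 and 5.88 CPM. All Sox10ko libraries lay well under the lowest control library. The fall was 5.40-fold (log2 fold change -2.43 ± 0.24, edgeR adjusted p = 0.00056). Ephb2, the class B receptor of Schwann cell sorting named above, was read at 18.9, 18.9 and 23.9 CPM in control and at 2.07, 2.74 and 2.27 CPM in Sox10ko. Its groups did not overlap, and the libraries within each group lay close together. It fell 8.69-fold (-3.12 ± 0.19, edgeR adjusted p = 0.0001). Epha10, which has lost kinase activity, was scarce in control at 1.06, 5.63 and 3.63 CPM and had 2, 2 and 4 reads in the Sox10ko libraries. The control libraries differed among themselves more than for the other 2 genes, and each was above every Sox10ko library. The fall was 47.8-fold (-5.58 ± 0.75, edgeR adjusted p = 0.00182). Epha10 passed the low-count filter only through its control libraries, and this fold rests on those few Sox10ko reads.

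Ephb6, the other Eph receptor without kinase activity, went the opposite way. It stood at 16.9, 11.4 and 8.68 CPM in control and at 46.9, 29.4 and 33.8 CPM in Sox10ko, with no overlap (log2 fold change 1.57 ± 0.28, edgeR adjusted p = 0.00555). The most abundant Eph receptors were not called. Ephb4, a receptor for ephrin-B2 known from veins, stood at 70.3 ± 2.72 CPM in control and 68.2 ± 11.3 CPM in Sox10ko (-0.04 ± 0.13, edgeR adjusted p = 0.833). Ephb3 stood at 77.1 ± 7.47 and 78.4 ± 16.0 CPM (0.02 ± 0.16, edgeR adjusted p = 0.926). Epha2, which is frequent in epithelial and tumour cells, was read at 69.6, 33.8 and 45.6 CPM in control and at 50.4, 86.0 and 82.4 CPM in Sox10ko. The groups overlapped through control replicate 1 and Sox10ko replicate 1 (0.55 ± 0.30, edgeR adjusted p = 0.198). Epha1, which had at most 1.06 CPM in any library, was not called (-0.10 ± 0.61, edgeR adjusted p = 0.916). It shares 236 exonic bases with Zyx on the opposite strand, and since the strand setting of the counting is not given, reads of the pair cannot be told apart there. Epha5 had at most 0.854 CPM in any library and was not called (-1.25 ± 0.49, edgeR adjusted p = 0.09), but was called lower without Sox10ko replicate 1 (-1.89, edgeR adjusted p = 0.0201, against a range of 0.0201 to 0.257 over its alternatives). Its remaining Sox10ko values, 0.188 and 0.174 CPM, are under the filter cutoff of 0.249 CPM, so it passed there only through the control libraries.

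Read per kilobase of exon, which allows genes to be set beside each other, class A receptors summed to 15.5 ± 3.49 RPKM in control and 16.9 ± 4.20 RPKM in Sox10ko. Epha2 made up 68.4% of that sum in control and 92.6% in Sox10ko, while Epha7 went from 4.21 ± 1.02 to 0.780 ± 0.184 RPKM. Class B receptors summed to 33.4, 30.8 and 30.8 RPKM in control and to 36.4 ± 3.55 RPKM in Sox10ko. Ephb4 led with 15.2 ± 0.586 RPKM in control, then Ephb3 with 11.6 ± 1.13, Ephb6 with 3.27 ± 1.11 and Ephb2 with 1.63 ± 0.231 RPKM, and no 2 of their ranges overlapped. In Sox10ko the ranges of Ephb4 (12.0 to 16.7 RPKM), Ephb3 (9.88 to 14.5) and Ephb6 (7.78 to 12.4) overlapped, and Ephb2 was last at 0.164 to 0.218 RPKM.

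The 3 lowered receptor genes lie on chromosome 4, as do Epha2 and Epha8. Epha7 spans 28813131 to 28967499 in GRCm38, Epha10 spans 124880899 to 124917800 and Ephb2 spans 136647539 to 136835988. Ephb2 and Epha8 are neighbours 93.4 kb apart. Among tested genes of chromosome 4, 759 averaged 1 CPM or more, and these had a median log2 fold change of -0.02, and with chromosome medians removed in each library the same 12 guidance genes were called. The bases just before the start sites of Epha7 and Ephb2 are shown because these genes fell together. The letters ACAAAG and ACAATG, cores that SOX factors are known to bind, were searched on both strands in the 250 bases before the RefSeq start, and matches would be in capitals; neither window holds one.
Epha7 (chr4:28812881-28813130, plus strand): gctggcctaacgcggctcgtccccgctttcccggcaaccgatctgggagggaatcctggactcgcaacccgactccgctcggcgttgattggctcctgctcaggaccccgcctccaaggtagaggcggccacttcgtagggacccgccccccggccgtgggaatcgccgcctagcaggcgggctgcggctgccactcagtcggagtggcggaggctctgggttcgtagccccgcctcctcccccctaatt
Ephb2 (chr4:136836013-136836262, minus strand): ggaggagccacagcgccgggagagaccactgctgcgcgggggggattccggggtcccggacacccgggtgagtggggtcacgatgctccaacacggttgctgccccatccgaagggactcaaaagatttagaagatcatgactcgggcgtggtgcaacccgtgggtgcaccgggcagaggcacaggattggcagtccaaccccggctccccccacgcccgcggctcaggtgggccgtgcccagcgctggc
The whole Epha10 window lies in exons annotated by GENCODE, so it is not shown.

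Ephrins were higher where they were called. Of 8 tested ephrins, 5 were higher and 0 were lower in edgeR, with the same counts at an unadjusted p under 0.05, in DESeq2 and in limma-voom. Over all tested genes edgeR called 17.3% higher and 14.7% lower, and 6684 of 15427 had an unadjusted p under 0.05 in either direction. Efna5, a class A ligand with a strong repulsive action on axons, stood at 5.23, 15.2 and 3.78 CPM in control and at 69.4, 69.7 and 68.6 CPM in Sox10ko. The Sox10ko libraries were nearly equal, and control replicate 2 stood apart from the other 2 controls. The rise was 8.58-fold (log2 fold change 3.10 ± 0.49, edgeR adjusted p = 0.0035), or 15.2-fold without control replicate 2 (edgeR adjusted p = 0.00034, with a range of 3.83e-11 to 0.0179 over its alternatives). It was 7.16-fold without control replicate 1 and 6.68-fold without control replicate 3. Efna1 went from 0.325, 0.486 and 0.342 CPM to 1.74, 2.88 and 1.72 CPM (5.47-fold, 2.45 ± 0.34, edgeR adjusted p = 0.00209), and Efna3 from 0.406, 0.461 and 0.463 CPM to 1.53, 3.38 and 3.36 CPM (6.18-fold, 2.63 ± 0.37, edgeR adjusted p = 0.00229). Both were scarce, and for both every Sox10ko library lay above every control library. Efna3 overlaps the antisense gene Gm15998 over 344 exonic bases, 14.1% of its own, and Gm15998 rose too, from 49 reads in control to 295 in Sox10ko (2.64 ± 0.47, edgeR adjusted p = 0.00559). Without a stated strand setting, reads of these genes cannot be told apart there.

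Efna1, Efna3 and Efna4 lie side by side in 66.3 kb of chromosome 3, all on the minus strand. Efna4 stood at 4.79, 5.84 and 5.49 CPM in control and at 7.51, 5.37 and 4.76 CPM in Sox10ko. Its groups overlapped (log2 fold change 0.13 ± 0.23, edgeR adjusted p = 0.703), although Efna3 begins only 10.4 kb away. Efna4 shares 168 exonic bases with the antisense gene 4731419I09Rik, which had 38 reads in control and 47 in Sox10ko. The starts of Efna3 and Efna4 are set side by side because these neighbours differed in whether they were called, with that of Efna5, the ephrin with the largest rise. Capitals mark ACAAAG or ACAATG on either strand.
Efna3 (chr3:89322940-89323189, minus strand): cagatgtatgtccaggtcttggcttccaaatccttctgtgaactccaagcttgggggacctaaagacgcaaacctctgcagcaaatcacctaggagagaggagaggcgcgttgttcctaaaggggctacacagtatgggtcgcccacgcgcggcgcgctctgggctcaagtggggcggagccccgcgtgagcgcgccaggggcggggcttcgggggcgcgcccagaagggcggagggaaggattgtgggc
Efna4 (chr3:89338029-89338278, minus strand): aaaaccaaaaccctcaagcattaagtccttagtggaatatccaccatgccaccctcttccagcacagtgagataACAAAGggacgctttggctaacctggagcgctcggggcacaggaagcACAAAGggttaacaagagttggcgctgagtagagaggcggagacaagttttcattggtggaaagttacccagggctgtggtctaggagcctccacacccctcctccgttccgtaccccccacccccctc
Efna5 (chr17:62881318-62881567, minus strand): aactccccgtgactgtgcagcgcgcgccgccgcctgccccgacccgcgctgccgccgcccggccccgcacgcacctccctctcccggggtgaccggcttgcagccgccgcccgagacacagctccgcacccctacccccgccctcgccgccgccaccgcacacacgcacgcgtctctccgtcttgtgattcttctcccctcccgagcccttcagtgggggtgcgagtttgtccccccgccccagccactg
The Efna4 window holds 2 copies of ACAAAG, 176 and 129 bases before the start, and the windows of Efna3 and Efna5 hold none. The last 26 bases of the Efna3 window are exonic in GENCODE. Over the 33 guidance genes with a window, 4 (12.1%) held a motif, where 25.2% of 32851 windows of the same length did. None of the windows of the 12 called genes held one, against 3 of 10 windows of genes tested and not called. Some called windows lay largely inside annotated exons, with 250 exonic bases for Epha10, 232 for Slit3 and 191 for Efna1. The windows of guidance genes were rich in CpG, with a median of 17 CpG and a GC content of 65.6%, against 6 CpG and 52.4% over all windows. A match is a description of the letters only, and a window without one says nothing of the factor.

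Of the 3 class B ephrins 2 rose, each by less than 2-fold, where 17.3% of all tested genes were called higher. Efnb2, a ligand of Ephb4 known from arteries, stood at 31.8, 22.9 and 26.5 CPM in control and at 36.8, 53.2 and 52.1 CPM in Sox10ko. The groups did not overlap, though Sox10ko replicate 1 was close to control replicate 1 (log2 fold change 0.81 ± 0.18, edgeR adjusted p = 0.0146). Leaving out control replicate 2 (edgeR adjusted p = 0.0535) or control replicate 3 (edgeR adjusted p = 0.066) ended the call; over all alternatives the adjusted p ran from 0.000607 to 0.066. Efnb1 went from 63.2, 54.9 and 56.0 CPM to 80.8, 67.4 and 84.7 CPM (0.42 ± 0.12, edgeR adjusted p = 0.0317). This small rise held in 7 of 14 alternatives, with an adjusted p of 0.012 to 0.13, and in 1 of the 6 in which a library was left out, that without Sox10ko replicate 2. Efnb3 at 2.92 ± 0.370 and 3.01 ± 0.109 CPM (0.04 ± 0.20, edgeR adjusted p = 0.899) and Efna2 at 0.774 ± 0.176 and 0.886 ± 0.410 CPM (0.18 ± 0.39, edgeR adjusted p = 0.763) were not called.

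Per kilobase, the class A ephrins summed to 4.92, 8.32 and 5.11 RPKM in control and to 24.1, 23.9 and 22.7 RPKM in Sox10ko. Efna4 made up 54.9% of the control mean, although Efna5 (3.77 RPKM) lay just above it (3.65 RPKM) in control replicate 2. Efna5 made up 72.9% of the Sox10ko mean and led in each Sox10ko library. The class B ephrins summed to 21.7 ± 2.05 RPKM in control and 30.3 ± 2.51 RPKM in Sox10ko, with Efnb1 first in both groups (77.6% and 74.1%). The class B sum was above the class A sum in each of the 6 libraries.

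**Figure D3:**
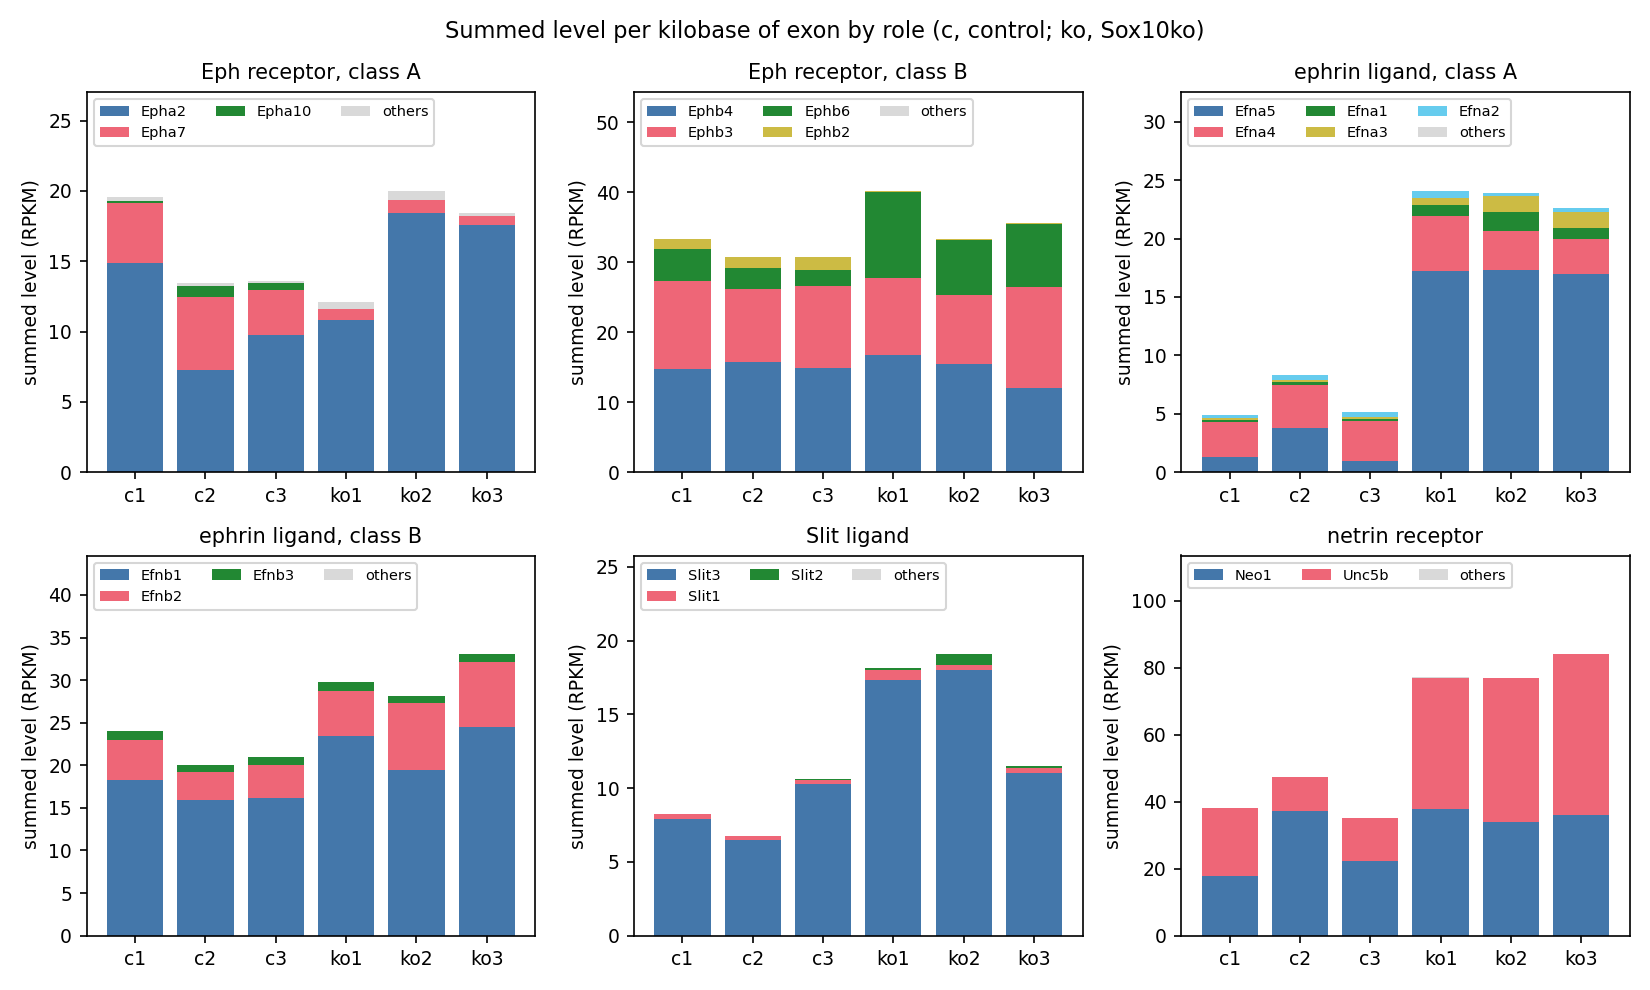
Summed level in RPKM (reads per kilobase of exon, scaled for depth) of the genes of 6 roles in each library, stacked by gene; c1 to c3 are control replicates and ko1 to ko3 Sox10ko replicates, and each panel has its own axis starting at 0. Efna5 makes up most of the class A ephrins in the 3 Sox10ko libraries, Epha2 most of the class A receptors, and Unc5b on average 54.7% of the netrin receptors.

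Of the 3 Slits 2 rose in Sox10ko, where 17.3% of all tested genes were called higher, and the only tested Robo was not called. Slit3 was read at 47.8, 39.3 and 62.3 CPM in control and at 105, 109 and 66.6 CPM in Sox10ko. Sox10ko replicate 3 lay just above the highest control (log2 fold change 0.91 ± 0.23, edgeR adjusted p = 0.0234). The call was lost when control replicate 1, control replicate 2, Sox10ko replicate 1 or Sox10ko replicate 2 was left out (edgeR adjusted p = 0.0817, 0.0784, 0.0608 and 0.0621), and over all alternatives the adjusted p ran from 0.00139 to 0.0817. Slit2 stood at 0.325, 0.333 and 0.439 CPM in control and at 4.49, 18.2 and 3.26 CPM in Sox10ko. Every Sox10ko library lay above the controls, and replicate 2 was far above the other 2. The rise was 23.4-fold (4.55 ± 0.74, edgeR adjusted p = 0.00396), or 10.4-fold without Sox10ko replicate 2 (edgeR adjusted p = 0.00092, with a range of 2.29e-11 to 0.0246 over its alternatives). Slit1 was at 1.68 ± 0.233 and 2.76 ± 1.11 CPM. Its groups did not overlap and it was not called (0.71 ± 0.32, edgeR adjusted p = 0.134).

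Per kilobase, Slit3 made up 96.5% of the Slit sum in control and 95% in Sox10ko. Slit2 stood at 0.0144 ± 0.00251 and 0.340 ± 0.325 RPKM. Its length was taken as 25433 bases over 23 annotated transcripts, against 6067 bases for Slit3. The RPKM of Slit2 and its share of the sum may therefore be understated. The Slit sums were 8.22, 6.73 and 10.6 RPKM in control and 18.1, 19.1 and 11.5 RPKM in Sox10ko. Robo2 was read at 17.7, 25.3 and 19.4 CPM in control and at 17.0, 18.2 and 27.6 CPM in Sox10ko. The groups overlapped (log2 fold change 0.01 ± 0.22, edgeR adjusted p = 0.982). Robo1, the receptor linked to Slit3 in nerve repair, had 0 reads in every library but Sox10ko replicate 2, where it had 32. A count of 0 over the control group allows up to 0.0256 CPM. Robo3, which in mammals binds Nell2 rather than Slits, had 2 reads in control and 22 in Sox10ko, of which 18 were in replicate 2, and Robo4, a receptor of endothelial cells, had 1 read in all. Of the Robo receptors, 0 were called in edgeR, at an unadjusted p under 0.05, in DESeq2 or in limma-voom.

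Netrin ligands were not called in either direction, in edgeR, at an unadjusted p under 0.05, in DESeq2 or in limma-voom (0 of 2 tested each). Ntn4, a netrin that binds laminins in basement membranes, was the most abundant at 56.2 ± 6.20 CPM in control and 59.0 ± 7.80 CPM in Sox10ko (log2 fold change 0.07 ± 0.13, edgeR adjusted p = 0.718). Ntn1, the classical chemoattractant, stood at 3.60, 4.30 and 4.68 CPM in control and at 9.79, 1.10 and 7.82 CPM in Sox10ko. Sox10ko replicates 1 and 3 lay above the controls and replicate 2 below them, and no call was made (0.57 ± 0.66, edgeR adjusted p = 0.549). Without Sox10ko replicate 2 it was called higher (1.06, edgeR adjusted p = 0.0146, against a range of 0.0146 to 0.993 over its alternatives).

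Among netrin receptors, Unc5b rose. This repulsive receptor stood at 126, 64.1 and 81.2 CPM in control and at 246, 269 and 301 CPM in Sox10ko. Every Sox10ko library lay far above the highest control. The rise was 3.01-fold (log2 fold change 1.59 ± 0.24, edgeR adjusted p = 0.00299). Neo1 (neogenin), which binds both netrins and the repulsive guidance molecules, was read at 155, 325 and 194 CPM in control and at 329, 296 and 314 CPM in Sox10ko. Control replicate 2 lay within the Sox10ko range and the other 2 controls below it (0.48 ± 0.25, edgeR adjusted p = 0.194). Without control replicate 2 it was called higher (0.83, edgeR adjusted p = 0.0109, against a range of 0.0109 to 0.476 over its alternatives). Per kilobase, Neo1 led in control at 25.8 ± 10.2 RPKM against 14.5 ± 5.12 RPKM for Unc5b, with ranges that overlapped. In Sox10ko Unc5b stood at 43.4 ± 4.46 RPKM and Neo1 at 35.9 ± 1.92 RPKM, with ranges that did not overlap. These were the 2 highest levels per kilobase of all guidance genes in Sox10ko. Dcc, the attractive netrin receptor, had 17 reads in all 6 libraries, Unc5c had 7 and Unc5a had 0.

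The 13 untested genes had at most 136 reads each over the 6 libraries. Epha6, Ephb1 and Unc5a had 0 reads. Epha3 had 1 read in control and 135 in Sox10ko, all of the latter in replicate 2. Without any low-count filter Epha3 (edgeR adjusted p = 0.0272), Epha8 (edgeR adjusted p = 0.0195) and Unc5d (edgeR adjusted p = 0.0425) were called higher. Epha8 had 5, 4 and 3 reads in control and 62, 6 and 18 in Sox10ko, and Unc5d had 4, 4 and 3 against 28, 17 and 5. Epha4 had 6 reads and Ntn5 had 18, the latter in a gene that shares 23.4% of its exonic bases with Sec1 on the opposite strand. Sox10ko replicate 2 thus held 99.3% of the Epha3 reads, 100% of the Robo1 reads and 75% of the Robo3 reads, besides the highest Slit2 and the lowest Ntn1 level of the Sox10ko group.

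**Figure D4:**
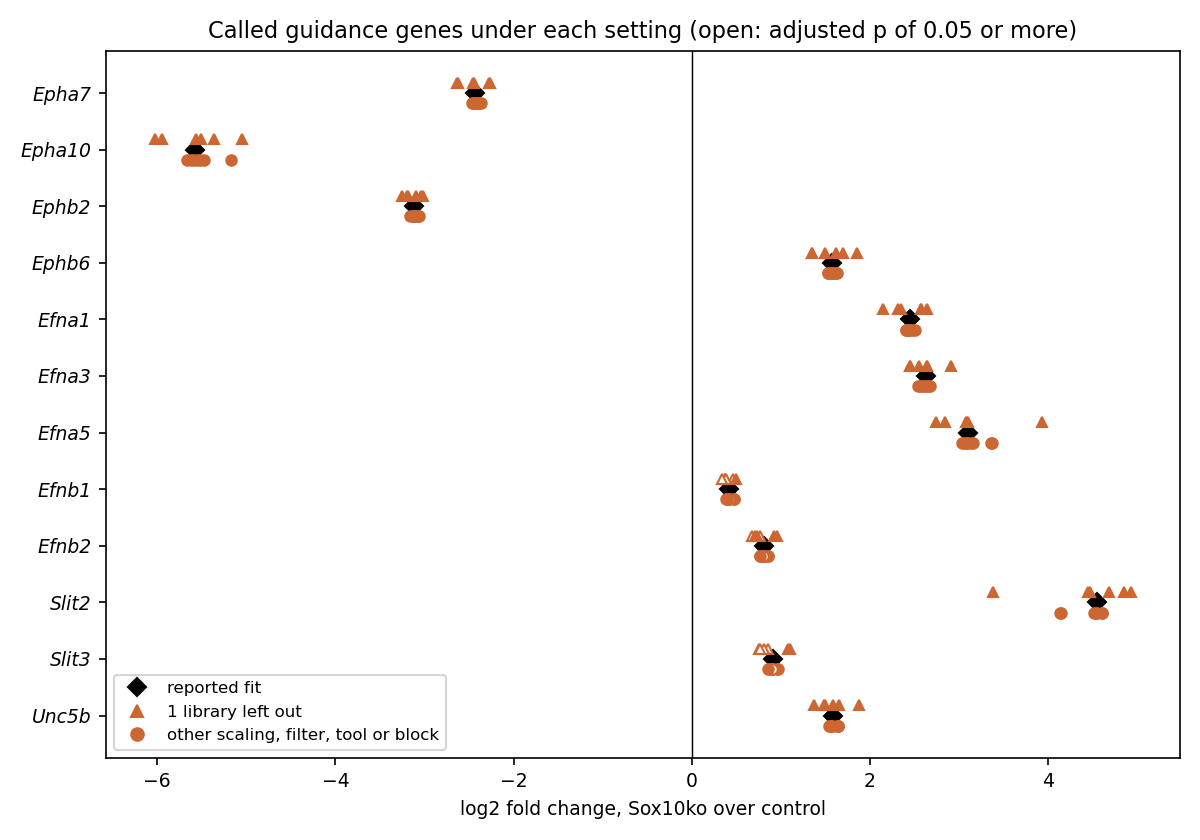
Log2 fold change of the 12 called guidance genes in the reported fit (diamonds), with 1 library left out (triangles) and under other scalings, filters, tools or a replicate block (circles); open symbols have an adjusted p of 0.05 or more. Open symbols occur for Efnb1, Efnb2 and Slit3 only, and no gene crosses 0.

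Other genes of the 3 pathways, cytoplasmic effectors and co-receptors listed by their known roles, were called in both directions. The background over all tested genes was 32.0% called, 17.3% higher and 14.7% lower. Of 26 tested Eph-ephrin partners, 6 were higher and 6 lower (46.2% called, median log2 fold change -0.03), or 3 higher without control replicate 2 or without control replicate 3. Arhgef5, a guanine nucleotide exchange factor, rose from 18.6 ± 1.55 to 62.7 ± 2.98 CPM (1.75 ± 0.11, edgeR adjusted p = 0.0001), Arhgef16 from 0.118 ± 0.0800 to 2.89 ± 1.04 CPM and Kalrn, also an exchange factor in dendritic spines, from 7.80, 10.2 and 5.98 CPM to 63.1, 49.0 and 24.0 CPM. Chn2, a Rac inhibitor of the chimaerin family, fell from 10.2 ± 2.32 to 0.0547 ± 0.0948 CPM. Arhgef16 passed the low-count filter only through its Sox10ko libraries and Chn2 only through its control libraries. All 7 Sox10ko reads of Chn2 were in replicate 2, and without that library it was at least 253-fold lower, taking 3 counts over the other Sox10ko libraries as the floor. Itsn1, an endocytic scaffold, fell from 126 ± 2.71 to 86.3 ± 2.69 CPM (-0.55 ± 0.08, edgeR adjusted p = 0.00261).

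Of 25 tested Slit-Robo partners, 5 were higher and 10 lower (60% called, against 32.0% of all tested genes, median -0.08). These counts became 4 lower without control replicate 3, 6 lower without control replicate 1 or 2, and 3 higher without control replicate 1 or 3. Abl2, a kinase that acts under Robo receptors, fell from 178 ± 11.9 to 97.2 ± 2.41 CPM, Pak3, a kinase driven by Rac and Cdc42, from 73.3 ± 13.7 to 20.7 ± 3.82 CPM and Flrt3, a surface protein that binds Robo1 and Unc5 receptors, from 51.1 ± 5.16 to 18.9 ± 3.94 CPM. Enah, an actin regulator recruited by Robo, rose from 26.2, 25.3 and 30.2 CPM to 75.3, 127 and 173 CPM, and Ext1, an enzyme that extends heparan sulfate, from 66.2 ± 12.5 to 181 ± 35.5 CPM. Of 25 tested netrin partners, 2 were higher and 10 lower (48% called, median -0.32), or 1 higher when control replicate 1, 2 or 3 was left out and 3 higher without Sox10ko replicate 2. Lrrc4b, a synaptic adhesion protein of the netrin-G ligand family, fell from 30.4 ± 5.64 to 4.16 ± 0.902 CPM (-2.87 ± 0.22, edgeR adjusted p = 0.000225), Draxin, a secreted repellent that binds Dcc, from 3.79 ± 0.651 to 0.639 ± 0.165 CPM and Rgmb, a repulsive guidance molecule that binds neogenin, from 237 ± 30.5 to 82.0 ± 23.2 CPM. Fyn, a kinase downstream of both Dcc and ephrins, fell from 112 ± 5.33 to 69.1 ± 7.48 CPM. The 2 higher genes, named after their values were seen, were Flrt1 (2.29, edgeR adjusted p = 0.00745) and Adora2b (3.17, edgeR adjusted p = 0.0239). Adora2b passed the low-count filter only through its Sox10ko libraries, with 133 of its 176 Sox10ko reads in replicate 3. Flrt1 would not have passed without its Sox10ko libraries either. Control replicates 2 and 3 of Flrt1, at 0.23 and 0.244 CPM, were under the cutoff of 0.249 CPM. Several genes, Flrt3 and Fyn among them, are in more than 1 of these lists.

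**Figure D5:**
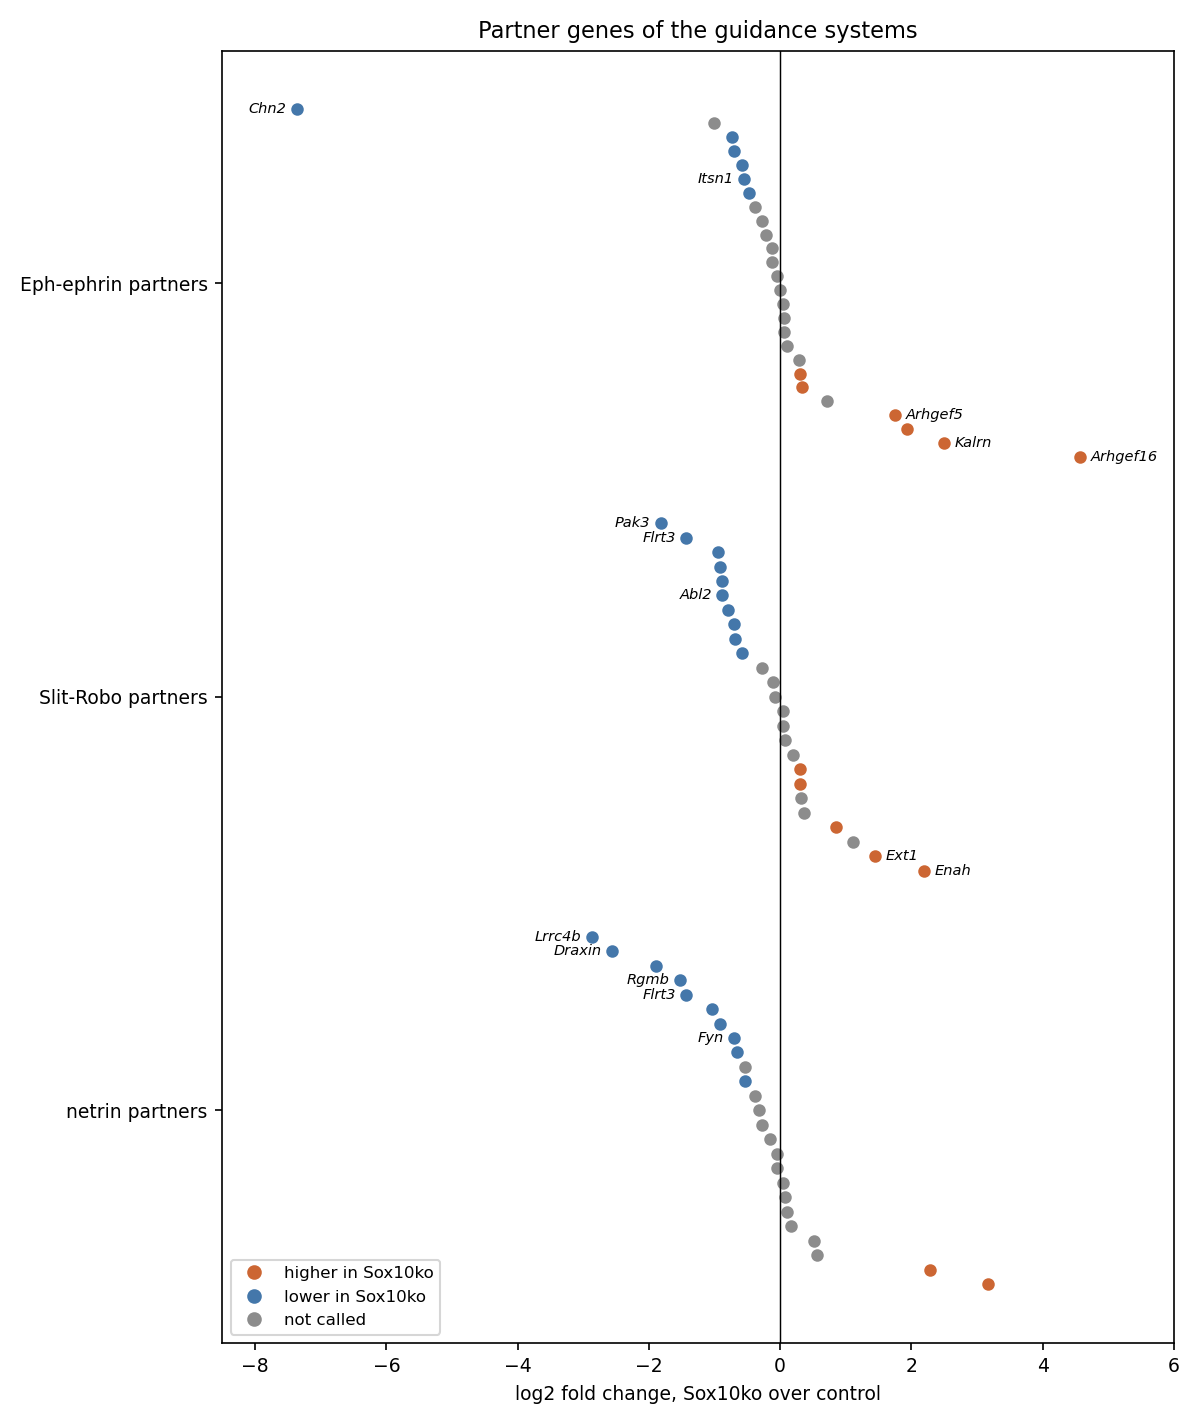
Log2 fold change of Sox10ko over control for the tested partner genes of the 3 systems, 1 point per gene, spread vertically by rank within each list; orange marks genes called higher, blue lower and grey not called, and up to 5 called genes with the lowest adjusted p are named per list. Eph-ephrin partners are split 6 and 6, and netrin partners have 10 lower and 2 higher. Of all tested genes 17.3% were called higher and 14.7% lower.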

How the data were processed

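The authors deposited 6 tables, 1 for each library, of raw counts by Ensembl ID. The submitters' processing notes list mouse build mm10 (GRCm38), HTSeq, DESeq2 and STAR 2.6.0c without roles; the annotation release and the strand setting are not given there. Libraries came from a stranded mRNA kit, per the labels' protocols. Symbols matched 54042 of 54109 IDs. Exon-union lengths and coordinates came from GENCODE M21 on GRCm38, and start-site sequences from RefSeq on GRCm38.p6. A length over all annotated transcripts understates RPKM for genes with long, little-used exons.

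Counts were filtered with filterByExpr (at least 10 reads at the median depth, 0.249 CPM, in 3 libraries), scaled with TMM and tested for genotype with the quasi-likelihood F test of edgeR 4.0.16 (R 4.3.3), two-sided, over all 15427 tested genes with Benjamini-Hochberg adjustment and a threshold of 0.05; SE was derived from the F statistic. The step was tested on simulated data. Alternatives were other scalings and filters, DESeq2 1.42.0, limma-voom (limma 3.58.1), a replicate block, removal of chromosome medians and leaving out each library. Replicates differed by more than sampling noise in every pair (chi-square per degree of freedom of 24.7 to 80.9). Reads are not independent molecules, so floors (3 counts) cover counting error only. Members, partner lists and markers were chosen with earlier results of these data known. By rule, non-members named are Sox10 and up to 5 called partners per list with the lowest adjusted p. Markers and genes overlapping a member on the opposite strand are named as checks, and Flrt1, Adora2b, Dscam, Lrrc4c and Trim9 were named after their values were seen.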

Additional observations from a re-analysis of the deposited data

How the results depend on the processing

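Of 341 values of the 25 tested guidance genes under the alternatives, 323 kept their side of the threshold, 15 were no longer called, 3 were newly called and 0 called values reversed. The same 12 genes were called with DESeq2 size factors, library size alone, DESeq2, limma-voom and chromosome medians removed. The 9 higher and 3 lower guidance genes became 11 and 3 without a low-count filter, 6 and 2 over genes averaging 5 CPM or more, and 7 to 10 and 3 to 4 with 1 library left out. The 11 without a filter gained Epha3, Epha8 and Unc5d and lost Efnb1 (edgeR adjusted p = 0.0586). Of the 136 reads of Epha3, 135 were in Sox10ko replicate 2. Over all genes, 2869 to 4681 were called with a library left out, the fewest without control replicate 3, against 4939. Eph-ephrin partners called ranged from 3 to 6 higher with a library left out. Slit-Robo partners ranged from 3 to 5 higher and 4 to 9 lower, and 3 were higher without a low-count filter. Netrin partners called higher were 0 with a mean of at least 5 CPM, 1 with limma-voom and 1 to 3 with a library left out. The causes were not tested.

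The replicate labels do not say whether same-numbered libraries were paired. Deviations of same-numbered libraries correlated at -0.12, -0.04 and 0.04 over 15427 genes, and those of differently numbered libraries at -0.07 to 0.1. With 3 libraries per group, these values cannot settle whether there was a pairing. With the number as a replicate block, 3537 genes were called, 9 of the 12 guidance genes (6 higher, 3 lower), and 3 higher and 6 lower Slit-Robo partners; Efnb1, Efnb2 and Slit3 lost their calls (edgeR adjusted p = 0.0605, 0.051 and 0.0707). Depth limits the 13 untested genes, which had at most 136 reads.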

Other observations

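Among scarce partners of the netrin system, chosen here after their values were seen, a few had reads in 1 group only. Dscam, an adhesion molecule that also binds netrin, had 0 reads in the control libraries and 2, 2 and 83 in Sox10ko replicates 1, 2 and 3. Lrrc4c, a netrin-G ligand, had 36 reads in Sox10ko replicate 2 and 0 in every other library. Trim9, a ubiquitin ligase that binds Dcc, had 5, 1 and 6 reads in the control libraries and 0 in Sox10ko. These genes did not pass the low-count filter.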
